A study of Homo sapiens with 4 samples.

Results

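The genes described here encode the machinery that brings proteins into mitochondria. They were taken as the protein-coding genes whose symbol starts with TIMM or TOMM and a digit, together with TIMMDC1, PAM16, DNAJC15, DNAJC19, GRPEL1, GRPEL2, SAMM50, MTX1 and MTX2. The rule names 34 genes, of which 33 had a row in the table of 20515 genes, and TOMM20L was not analysed here. All 33 passed the filter on low counts and were tested among 18369 genes. RNA came from T47D, an established human breast cancer cell line with luminal features and hormone receptors. The treated libraries were 2 replicates given baicalein, a plant flavonoid, and the control libraries were 2 replicates without treatment. The sources used here give no dose, duration or vehicle, and every library came from the same cell line. The question was how transcript levels change under baicalein.

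Nearly all mitochondrial proteins are made in the cytosol and carried through the outer membrane by the TOM complex, a pore with receptors. From there, small chaperones of the intermembrane space hand hydrophobic carriers to the TIM22 complex and barrel proteins to the SAM complex. Proteins with a cleavable presequence pass through the TIM23 complex and are pulled into the matrix by a motor built on the chaperone HSPA9.

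Total counts were 56732569 and 38597207 in baicalein 1 and 2, and 45341857 and 45618604 in control 1 and 2. The 33 genes together took 0.204% and 0.206% of counts in the baicalein libraries and 0.194% and 0.189% in the controls. Levels are given in CPM, the count relative to the library total scaled by TMM, and 1 CPM stood for 37.2 to 54.7 counts. Every member had at least 268 counts in each library. All 9 markers of the cell line were tested, and 7 of them were lower, with summed levels of 7295 and 7412 CPM in baicalein and 12879 and 14177 CPM in control. Among the lower ones, the estrogen receptor gene ESR1 had 39.2 and 37.8 CPM in baicalein and 183 and 171 CPM in control. The cadherin gene CDH1 was higher (log2 fold change 0.94, adjusted p = 1.75e-15), and EPCAM did not pass (0.10, adjusted p = 0.0584). Of 14 markers of other cell types, 5 were tested, with summed levels of 172 and 163 CPM in baicalein and 122 and 133 CPM in control, most of it COL1A1. COL1A1 was higher (log2 fold change 0.61), ACTA2 and ADIPOQ were lower (-0.50 and -2.72), and VIM and CD68 did not pass. Of the markers under the filter, PTPRC had 5 and 6 counts in baicalein and 0 and 0 in control, COL1A2 had 1 and 0 in baicalein and 5 and 5 in control, and PLIN1 had 12 and 8 in baicalein and 9 and 12 in control. The other 6 were not analysed here. Their part in the results was not tested. In these bulk libraries, fewer cells of a type and less RNA per cell cannot be told apart. The labels do not say whether replicates were separate cultures, and the spread behind each p-value may then be technical.

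Promoter sequences of 4 members are shown beside the contrasts below, and their part in these was not tested. GRPEL2 and TOMM34 had motifs of the same kinds and opposite changes, and TIMM23B and TIMM23 are near copies with opposite changes. Each is the RefSeq window on GRCh38.p14 from 250 bases before to 50 bases after the annotated start, read 5′ to 3′ on the strand of the gene. Capitals mark the motif CCGGAAG of ETS family factors, which include the mitochondrial regulator GABP, or the motif of the factor NRF1 (GCGC, any base, TGCGC), on either strand.
GRPEL2 (chr5:149345249-149345548, plus strand): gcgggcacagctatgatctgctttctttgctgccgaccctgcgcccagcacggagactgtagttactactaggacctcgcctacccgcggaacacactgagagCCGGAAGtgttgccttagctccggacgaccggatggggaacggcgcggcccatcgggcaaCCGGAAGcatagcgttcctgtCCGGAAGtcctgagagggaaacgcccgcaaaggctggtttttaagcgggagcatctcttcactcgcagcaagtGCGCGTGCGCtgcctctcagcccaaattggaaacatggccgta
TOMM34 (chr20:44960348-44960647, minus strand): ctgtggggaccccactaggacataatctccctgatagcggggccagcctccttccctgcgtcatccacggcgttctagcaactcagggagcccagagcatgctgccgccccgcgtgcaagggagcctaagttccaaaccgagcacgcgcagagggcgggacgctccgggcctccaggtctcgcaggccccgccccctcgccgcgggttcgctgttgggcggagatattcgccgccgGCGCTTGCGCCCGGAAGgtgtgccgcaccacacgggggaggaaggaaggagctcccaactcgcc
TIMM23B (chr10:49941803-49942102, plus strand): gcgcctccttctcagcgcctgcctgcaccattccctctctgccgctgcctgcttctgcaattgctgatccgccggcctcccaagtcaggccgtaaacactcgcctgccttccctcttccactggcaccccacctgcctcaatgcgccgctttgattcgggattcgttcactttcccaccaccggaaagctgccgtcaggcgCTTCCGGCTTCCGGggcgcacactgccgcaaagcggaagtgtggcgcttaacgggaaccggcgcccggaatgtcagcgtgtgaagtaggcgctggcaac
TIMM23 (chr10:45972239-45972538, plus strand): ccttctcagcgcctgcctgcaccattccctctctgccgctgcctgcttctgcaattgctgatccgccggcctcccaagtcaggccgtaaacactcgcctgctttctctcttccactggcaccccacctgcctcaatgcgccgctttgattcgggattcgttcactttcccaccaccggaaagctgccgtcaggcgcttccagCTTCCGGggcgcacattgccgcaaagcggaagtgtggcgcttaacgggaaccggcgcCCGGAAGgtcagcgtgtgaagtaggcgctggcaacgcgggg

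GRPEL2 held 3 ETS motifs and 1 NRF1 motif, and TOMM34 held 1 of each. Over 294 aligned bases the windows of TIMM23 and TIMM23B were 98.3% identical. In the printed windows, TIMM23B has a pair of adjacent ETS matches, and TIMM23 has 1 match in the same stretch and 1 after the start. A window was found for 30 of the 33 members, and 15 of them (50%) held the ETS motif. The motif was in 10.3% of all 35116 RefSeq windows and in the windows of 21.4% of 11111 tested protein-coding genes. The NRF1 motif was in 7 of the 30 members (23.3%), in 5.78% of all windows and in 12.6% of tested protein-coding genes. GRPEL2, TIMM29, TOMM20 and TOMM34 held both motifs, and their log2 fold changes were 1.49, -0.41, 0.45 and -0.64. The letters TGATGNAA of the element bound by ATF4 were in TIMM22 alone among the 30, in 3.62% of all windows and in 2.83% of tested protein-coding genes. The letters TNGCGTG of the xenobiotic response element were in 5 of the 30 (16.7%), in 5.51% of all windows and in 9.31% of tested protein-coding genes. Other motifs were searched as well. A string related to the antioxidant response element, with a longer run of free bases than its core, was in 6 of the 30 (20%). That string was in 14.1% of all windows and in 19.7% of tested protein-coding genes. The element itself was not searched, so its share is not known. The motif of the factor YY1 was in 2 of the 30 (6.67%), in 2.89% of all windows and in 6.14% of tested protein-coding genes. The CRE and the ER stress element were in no member window, and in 3.69% and 0.144% of tested protein-coding genes. These motifs were chosen after the values were seen, matches can overlap one another, and a match is a description of the letters only.

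Baicalein moved the import genes in both directions and mostly by small amounts. Of the 33 genes, 13 were higher, 14 were lower and 6 did not pass at an adjusted p of 0.05, from the quasi-likelihood test of edgeR with p-values adjusted by Benjamini-Hochberg over all tested genes. All adjusted p-values below are from that test unless another tool is named. With library totals alone in place of TMM the split was 10 higher and 17 lower. Among all tested genes 75% passed, 37.4% higher and 37.6% lower. Among tested protein-coding genes, as all members are, 81.1% passed, so the members' 81.8% lies near the background. Changes of at least 1.5-fold were found in 6 higher and 3 lower members (27.3% in all), where 21.8% of all tested genes were higher and 24.1% lower by that much. The baicalein and control libraries did not overlap for any of the 33 genes, as for 86.9% of all tested genes.

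The median log2 fold change was -0.05 over the members and 0.00 over all tested genes. The median absolute log2 fold change was 0.34 over the members, 0.57 over all tested genes and 0.55 over tested protein-coding genes. The members ran from -0.81 for TOMM40L to 1.49 for GRPEL2. A test against a 1.5-fold change called GRPEL2, TIMM23B, TIMM44, TIMM9 and TIMM10B higher and TOMM40L lower, where 16.8% and 19.5% of all tested genes were called.

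**Figure D1:**
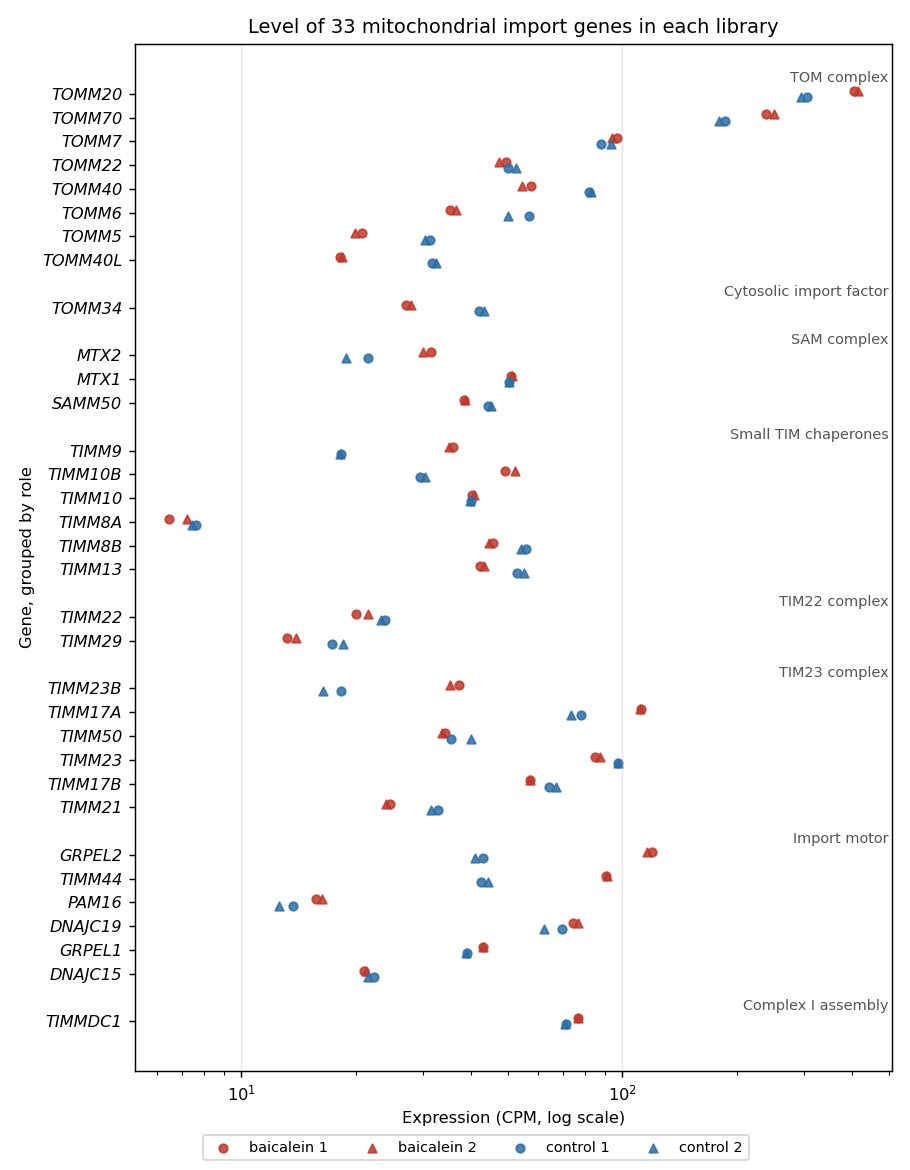
Level of each of the 33 genes in each library, in CPM on a log scale, grouped by role and sorted by change within a role. Red points are baicalein 1 and 2 and blue points control 1 and 2, and the largest gap between colours is that of GRPEL2, at 119 and 116 against 43.0 and 40.9 CPM.

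**Figure D2:**
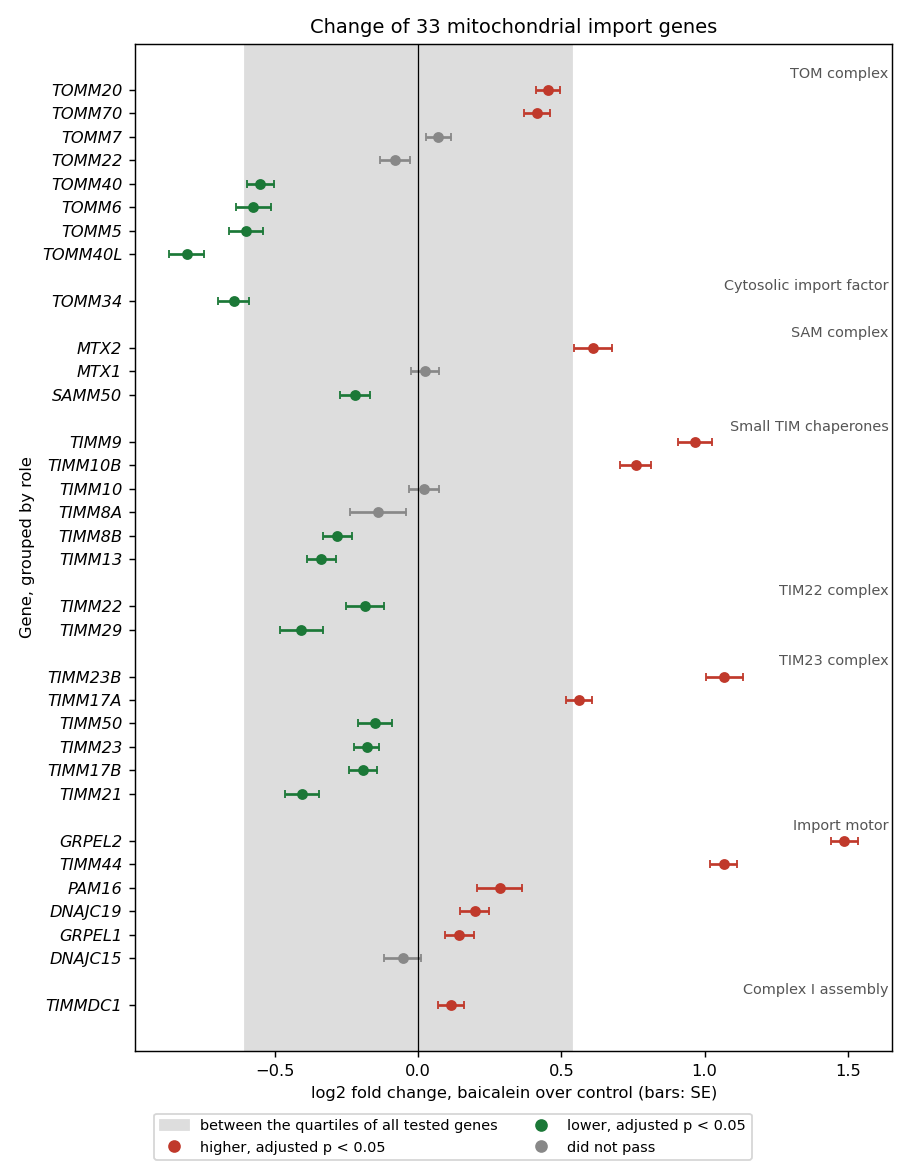
Log2 fold change of each gene, baicalein over control, with bars of 1 standard error from edgeR's fit. The grey band spans the quartiles of all 18369 tested genes, -0.61 to 0.54, and 9 of the 33 genes lie outside it, 7 above and 2 below.

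**Figure D3:**
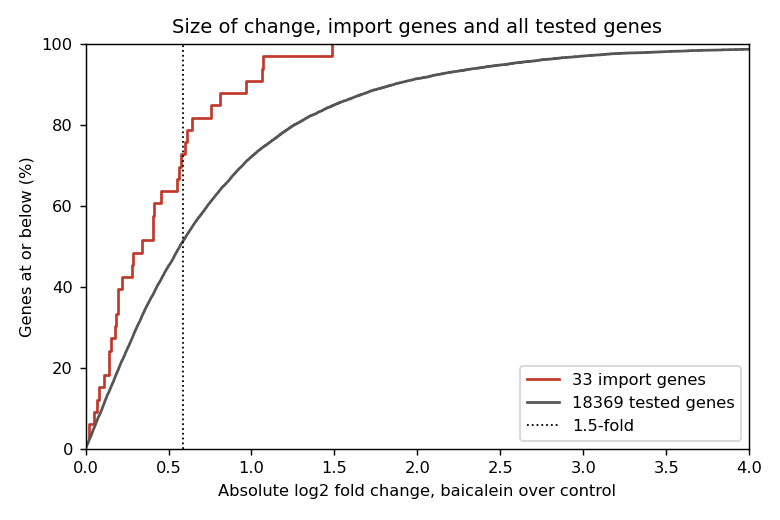
Cumulative share of genes by absolute log2 fold change for the 33 import genes (red) and 18369 tested genes (grey), with a dotted line at 1.5-fold and the axis ending at 4. The red line lies above the grey one over most of the axis, though not at its lowest end, with medians of 0.34 and 0.57.

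The import motor held the gene with the highest rise, GRPEL2, and the third, TIMM44, after TIMM23B of the TIM23 complex. Of its 6 genes, 5 were higher and 1 did not pass, where 37.4% of all tested genes were higher. Of these 5 calls, those of DNAJC19 and GRPEL1 were lost in alternatives given with their values. GRPEL2 (ENSG00000164284, chromosome 5, positions 149345430 to 149354583 of GRCh38) encodes a nucleotide exchange factor that resets HSPA9. GRPEL2 had 119 and 116 CPM in baicalein and 43.0 and 40.9 CPM in control. All treated values were above all control values by more than the spread within either group. The log2 fold change was 1.49 (SE 0.05, adjusted p = 7.56e-18), or 2.80-fold. TIMM44 (ENSG00000104980, chromosome 19, positions 7926718 to 7943920), which anchors HSPA9 at the exit of the TIM23 channel, had 90.8 and 91.2 CPM in baicalein and 42.6 and 44.3 CPM in control. The groups did not overlap, and TIMM44 rose by 1.07 on the log2 scale (SE 0.05, adjusted p = 3.49e-15).

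The other motor genes moved less. PAM16, which encodes a regulator of the motor's J protein, had 15.7 and 16.3 CPM in baicalein and 13.7 and 12.6 CPM in control (log2 fold change 0.28, SE 0.08, adjusted p = 0.00235). The value was 0.18 with library totals alone and 0.50 with GC content and exon length corrected. Its exons share bases with the readthrough gene CORO7-PAM16, which had 29 and 0 counts in baicalein and 10 and 40 in control. DNAJC19, a J protein of the motor, had 74.3 and 76.7 CPM in baicalein and 69.4 and 62.3 CPM in control (log2 fold change 0.20), and this call was lost with library totals alone (adjusted p = 0.125). Without control 2 the log2 fold change of DNAJC19 was 0.13. GRPEL1, the other exchange factor of HSPA9, had 43.1 and 43.0 CPM in baicalein and 39.0 and 38.9 CPM in control (log2 fold change 0.14, adjusted p = 0.0153). Its call was lost without baicalein 1 (adjusted p = 0.122), without baicalein 2 (0.0892), in DESeq2 (0.064), with upper quartile scaling (0.0554) and with library totals alone (0.487). DNAJC15, a J protein related to DNAJC19, had 21.0 and 21.2 CPM in baicalein and 22.3 and 21.5 CPM in control and did not pass (log2 fold change -0.05, adjusted p = 0.461). DNAJC15 passed with library totals alone (adjusted p = 0.0347) and with GC content and exon length corrected (-0.21, adjusted p = 0.000868).

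In the TIM23 complex, 2 genes were higher and 4 lower, where 37.4% of all tested genes were higher and 37.6% lower. TIMM23B (ENSG00000204152, chromosome 10, positions 49942033 to 49974850), a copy of the channel gene TIMM23, had 37.2 and 35.3 CPM in baicalein and 18.3 and 16.4 CPM in control. The groups stood well apart, and TIMM23B rose by 1.07 on the log2 scale (SE 0.06, adjusted p = 8.98e-13). TIMM23 itself (ENSG00000265354, chromosome 10, positions 45972449 to 46003734) encodes the channel subunit and had 84.9 and 87.2 CPM in baicalein and 97.7 and 97.2 CPM in control (log2 fold change -0.18, adjusted p = 0.000704). This call was lost without baicalein 1 (adjusted p = 0.0681). Of the 75-base words in TIMM23 transcripts of GENCODE 29, 9.15% also occur in TIMM23B transcripts, so the split of reads between the 2 genes is uncertain. TIMM23B also shares 131 exon bases on the same strand with TIMM23B-AGAP6, annotated as non-coding, which was lower (log2 fold change -0.46).

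TIMM17A, a partner of the TIMM23 channel, had 112 and 111 CPM in baicalein and 78.0 and 73.2 CPM in control (log2 fold change 0.56, SE 0.04, adjusted p = 1.18e-10). Its paralog TIMM17B had 57.3 and 57.2 CPM in baicalein and 64.2 and 66.8 CPM in control (log2 fold change -0.19, adjusted p = 0.000994), turning to 0.02 with GC content and exon length corrected (adjusted p = 0.655). TIMM21, which links TIM23 to the TOM complex, fell with a log2 fold change of -0.41. It had 24.5 and 24.0 CPM in baicalein and 32.8 and 31.5 CPM in control. The presequence receptor gene TIMM50 had 34.3 and 33.7 CPM in baicalein and 35.6 and 40.0 CPM in control (log2 fold change -0.15, adjusted p = 0.0255). The value rests on the controls, at -0.06 without control 2 and -0.23 without control 1. TIMM50 did not pass once control 2 was left out (adjusted p = 0.318), nor without baicalein 1 (0.106), without baicalein 2 (0.168), in DESeq2 (0.106) and with GC content and exon length corrected (0.0843).

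Related genes within the machinery changed in their ratio to each other, a measure that does not depend on the scaling of a library. The GRPEL1 to GRPEL2 count ratio was 0.361 and 0.371 in baicalein and 0.908 and 0.950 in control. The TIMM17A to TIMM17B ratio was 1.96 and 1.94 in baicalein and 1.22 and 1.10 in control. The share of GRPEL2 and of TIMM17A in their pairs was higher in both treated libraries. The TIMM23B to TIMM23 ratio was 0.438 and 0.404 in baicalein and 0.187 and 0.168 in control. The ratio of the metaxin genes MTX1 to MTX2 was 1.63 and 1.72 in baicalein and 2.35 and 2.68 in control.

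The remaining ratios moved less. The DNAJC15 to DNAJC19 ratio was 0.282 and 0.276 in baicalein and 0.321 and 0.344 in control. The TOMM40L to TOMM40 ratio was 0.315 and 0.338 in baicalein and 0.387 and 0.391 in control. The TIMM8A to TIMM8B ratio was 0.141 and 0.161 in baicalein and 0.136 and 0.137 in control. None of the 7 ratios overlapped between groups, and single genes did not overlap for 86.9% of all tested genes. An exact permutation test of 2 against 2 libraries cannot go below a two-sided p of 0.333. The differences between gene pairs were therefore not tested further. The TIMM23B pair was added after its values were seen.

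**Figure D4:**
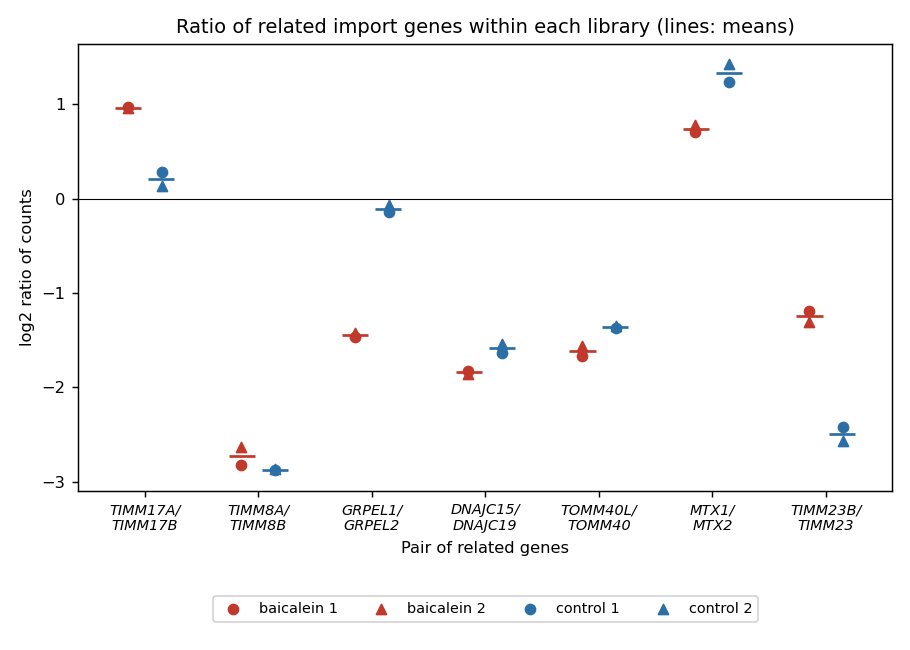
Log2 ratio of the counts of related import genes within each library, with lines at the group means (red, baicalein, and blue, control). The widest separations are those of GRPEL1/GRPEL2 (-1.45 and -0.11) and TIMM23B/TIMM23 (-1.25 and -2.49).

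In the TOM complex the receptor genes TOMM20 and TOMM70 were higher, and the pore gene TOMM40, its relative TOMM40L and the small subunit genes TOMM5 and TOMM6 were lower. Of 8 tested genes, 2 were higher, 4 lower and 2 did not pass, where 37.4% of all tested genes were higher and 37.6% lower. TOMM20 (ENSG00000173726, chromosome 1, positions 235109336 to 235128936), a receptor for presequences, had 405 and 416 CPM in baicalein and 305 and 295 CPM in control (log2 fold change 0.45, SE 0.04, adjusted p = 1.73e-09). TOMM70, a receptor for carrier precursors, had 238 and 249.5 CPM in baicalein and 187 and 179 CPM in control (log2 fold change 0.42, SE 0.05). For both, each treated library was above each control. TOMM40 (ENSG00000130204, chromosome 19, positions 44890569 to 44903689), which forms the pore, had 57.5 and 54.5 CPM in baicalein and 81.6 and 82.8 CPM in control. TOMM40 fell by 0.55 on the log2 scale (SE 0.05, adjusted p = 4.67e-10), and by 0.27 with GC content and exon length corrected. Of the 75-base words in TOMM40 transcripts, 5.97% also occur in pseudogene copies.

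TOMM40L, a gene similar to TOMM40, had 18.1 and 18.4 CPM in baicalein and 31.6 and 32.4 CPM in control. This was the lowest log2 fold change among the 33 genes (-0.81, SE 0.06, adjusted p = 3.89e-11). Its exons overlap those of NR1I3 on the opposite strand over 661 bases, but NR1I3 had only 15 and 17 counts in baicalein and 14 and 16 in control. TOMM5, a small subunit of the pore, had 20.7 and 19.8 CPM in baicalein and 31.3 and 30.3 CPM in control (log2 fold change -0.60, SE 0.06). TOMM6, another small subunit, had 35.4 and 36.6 CPM in baicalein and 57.1 and 50 CPM in control (log2 fold change -0.57, SE 0.06). All 637 exon bases of TOMM6 also belong to the longer gene AL365205.1, which fell too (log2 fold change -1.66), so the counts of TOMM6 depend on how reads were shared between them. TOMM5 shares exon bases with AL138752.2, which rose (log2 fold change 0.57), and with AL513165.2.

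TOMM7, a small subunit known for holding the kinase PINK1 at the outer membrane, had 96.6 and 94.2 CPM in baicalein and 88.1 and 93.6 CPM in control and did not pass (adjusted p = 0.159). It passed without control 2 (adjusted p = 0.00212), and its log2 fold change of 0.07 turned negative with library totals alone (-0.03) and with GC content and exon length corrected (-0.03). The central receptor gene TOMM22 had 49.5 and 47.6 CPM in baicalein and 50.2 and 52.5 CPM in control and did not pass (log2 fold change -0.08, adjusted p = 0.155). It passed without control 1 (adjusted p = 0.0152), with upper quartile scaling (0.049), with library totals alone (0.00278) and with GC content and exon length corrected (0.00539). TOMM34, which encodes a cytosolic partner of the HSP70 and HSP90 chaperones, had 27.0 and 27.8 CPM in baicalein and 42.2 and 43.4 CPM in control. TOMM34 fell by 0.64 on the log2 scale (SE 0.05, adjusted p = 3.3e-10).

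The genes of the SAM complex, which inserts barrel proteins into the outer membrane, went separate ways. MTX2 had 31.4 and 29.9 CPM in baicalein and 21.5 and 18.8 CPM in control (log2 fold change 0.61, SE 0.07, adjusted p = 2.48e-08). SAMM50, the insertase itself, had 38.3 and 38.6 CPM in baicalein and 44.4 and 45.2 CPM in control (log2 fold change -0.22, adjusted p = 0.000533). MTX1 had 51.0 and 51.4 CPM in baicalein and 50.4 and 50.4 CPM in control and did not pass, and its log2 fold change of 0.02 turned to -0.01 with upper quartile scaling and -0.08 with library totals alone. It passed with GC content and exon length corrected (0.21, adjusted p = 2.69e-05). Of the 75-base words in MTX1 transcripts, 14.4% also occur in its pseudogene MTX1P1.

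Among the small chaperones of the intermembrane space, 2 of 6 genes were higher and 2 lower. The background was 37.4% higher and 37.6% lower among all tested genes. TIMM9 (ENSG00000100575, chromosome 14, positions 58408494 to 58427614), which forms a ring with TIMM10 that escorts carriers, had 36.0 and 35.1 CPM in baicalein and 18.3 and 18.2 CPM in control (log2 fold change 0.96, SE 0.06, adjusted p = 1.13e-12). TIMM10, its partner in that ring, had 40.3 and 40.9 CPM in baicalein and 40.1 and 39.9 CPM in control and did not pass. Its log2 fold change was 0.02 and turned negative with upper quartile scaling (-0.01) and library totals alone (-0.08). TIMM10B, which docks the ring on the TIM22 complex, had 49.2 and 52.2 CPM in baicalein and 29.5 and 30.3 CPM in control (log2 fold change 0.76, SE 0.05, adjusted p = 1.71e-11). Of the words in its transcripts, 12.0% also occur in the annotated gene AC084337.2, which was not analysed here.

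TIMM13, which pairs with TIMM8A in another ring, had 42.3 and 43.3 CPM in baicalein and 52.9 and 55.3 CPM in control (log2 fold change -0.34, adjusted p = 3.07e-06), turning to 0.00 with GC content and exon length corrected (adjusted p = 0.95). TIMM13 shares 257 exon bases with LMNB2 on the same strand, which was lower (-1.32). TIMM8B had 45.9 and 44.6 CPM in baicalein and 56.0 and 54.2 CPM in control (log2 fold change -0.28, adjusted p = 2.75e-05), and 351 of its exon bases overlap NKAPD1 on the opposite strand, which was higher (0.51). TIMM8A, the gene of the human deafness-dystonia syndrome, had 6.47 and 7.20 CPM in baicalein and 7.60 and 7.40 CPM in control and did not pass (adjusted p = 0.193). It passed with library totals alone (adjusted p = 0.0294) and with GC content and exon length corrected (0.0484).

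Both tested genes of the TIM22 complex were lower, as were 37.6% of all tested genes. TIMM22, the channel for carriers, had 19.9 and 21.5 CPM in baicalein and 23.8 and 23.2 CPM in control (log2 fold change -0.19, adjusted p = 0.0136). Its call was lost without baicalein 1 (log2 fold change -0.12, adjusted p = 0.262), in DESeq2 (0.0852) and with GC content and exon length corrected (0.111). TIMM29, a subunit of the complex, had 13.2 and 13.9 CPM in baicalein and 17.3 and 18.5 CPM in control (log2 fold change -0.41, adjusted p = 4.62e-05), and its call was lost with GC content and exon length corrected (adjusted p = 0.0951). TIMMDC1, which resembles the TIM17 family and assembles respiratory complex I, had 76.5 and 76.6 CPM in baicalein and 71.0 and 70.5 CPM in control (log2 fold change 0.11, adjusted p = 0.0274). Its call was lost without baicalein 1 (adjusted p = 0.179), without baicalein 2 (0.159), in DESeq2 (0.0683), with upper quartile scaling (0.11), with library totals alone (0.849) and with GC content and exon length corrected (0.17).

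Levels were compared between genes after division by exon length, as CPM per kilobase of merged GENCODE exons. TOMM20 had the highest level in treated cells, 116 ± 2.03 CPM per kilobase, against 84.6 ± 1.98 in control cells (SD, n = 2 each). In control cells TOMM6 (84.0 ± 7.83) and TIMM23 (79.7 ± 0.279) came next, and the libraries of TOMM6 overlapped with those of TOMM20 and TIMM23. In treated cells TIMM23 (70.4 ± 1.35) was second and TOMM6 (56.5 ± 1.32) and TOMM7 (54.5 ± 0.992) followed. The TOMM6 libraries (55.5 and 57.4) lay above those of TOMM7 (55.2 and 53.8), the nearest of them closer than the SD of either gene. GRPEL2 stood at place 10 of 33 in treated cells and place 22 in control cells. TIMM8A had the lowest level in both groups, 1.93 ± 0.144 in treated and 2.12 ± 0.0397 in control cells, next to DNAJC15 at 2.62 ± 0.017 and 2.72 ± 0.0732. Merged exons include rarely used ones, so the level of a gene with a long annotated exon set is understated. Across the 33 genes the log2 fold change had a Pearson's r of -0.33 and a Spearman's rho of -0.37 with GC content, and 0.16 and 0.12 with exon length. These correlations are across genes in the same 4 libraries and are given as a description.

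Several members share a start region with a gene on the opposite strand, and the neighbours did not always move alike. TIMM10B and ARFIP2, whose starts overlap, were both higher (log2 fold changes 0.76 and 0.70). TIMM9 was higher, but KIAA0586, whose exons overlap those of TIMM9, was lower (-0.15). TIMM29 was lower and YIPF2, which starts 52 bases away, was higher (0.76). TIMM17B was lower, though not with GC content and exon length corrected, and PQBP1 was higher (0.46). TIMM8B was lower and SDHD, a subunit gene of respiratory complex II, was higher (0.11, adjusted p = 0.0255). DNAJC19 was higher, though not with library totals alone, and SOX2-OT was higher (1.80). TIMM21 was lower and FBXO15, with 7 to 19 counts in each library, was higher (1.13). Beside TOMM22, which did not pass, AL021707.2 was higher (0.73). LNP1 beside TOMM70 and PARGP1 beside TIMM23 did not pass. No source used here says whether counting used strand, so reads from overlapping exons of such pairs cannot be told apart.

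Other genes of the pathway were taken from 8 lists of 58 genes. Of these, 26 were higher, 21 lower and 11 did not pass, with a median log2 fold change of 0.08. The 81.0% that passed is near the 75% of all tested genes and the 81.1% of tested protein-coding genes. The mitochondrial HSP70 gene HSPA9, the chaperone that GRPEL2 and TIMM44 serve, had 1932 and 1978 CPM in baicalein and 586 and 571 CPM in control (log2 fold change 1.76, SE 0.04, adjusted p = 1.97e-20). The chaperonin gene HSPD1 was higher (0.95) and its partner HSPE1 was lower (-0.19), a call lost without baicalein 2 (adjusted p = 0.0696). Without control 1 the value of HSPE1 was -0.13. Of the presequence peptidase subunits, PMPCA had 96.3 and 97.2 CPM in baicalein and 152 and 157 CPM in control (log2 fold change -0.68, SE 0.04, adjusted p = 1.8e-12). PMPCB was lower by less (-0.13, adjusted p = 0.0137), and this call was lost without baicalein 1 (adjusted p = 0.0822) and without baicalein 2 (0.278). In the list of matrix processing and folding, 4 of 11 genes were higher and 6 lower, beside 37.4% and 37.6% of all tested genes.

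Of 6 partners of membrane insertion, 2 were higher and 2 lower, where 37.4% of all tested genes were higher and 37.6% lower. The metaxin gene MTX3 was higher (log2 fold change 0.90), ROMO1 and MTCH1 were lower (-0.60 and -0.47), and AGK, a lipid kinase in the TIM22 complex, did not pass (0.08, adjusted p = 0.249, turning to -0.02 with library totals alone and -0.07 with GC content and exon length corrected). In the disulfide relay of the intermembrane space, which folds the small TIM proteins, 2 of 7 genes were higher and 3 lower. CHCHD4, the oxidoreductase of that relay, had 32.4 and 34.3 CPM in baicalein and 33.4 and 33.0 CPM in control and did not pass (adjusted p = 0.954), with a log2 fold change of 0.00 whose sign changed between settings. COX19 rose (0.84), and COX17 and CHCHD2 fell (-0.82 and -0.56). Of 7 genes of the MICOS complex 1 was higher and 4 lower, among them MICOS10, APOO and IMMT (-0.64, -0.45 and -0.21). Of the outer membrane porin genes VDAC2 was higher (0.38), and VDAC3 and VDAC1 were lower (-0.76 and -0.10). The call of VDAC1 (adjusted p = 0.0428) was lost without baicalein 1 (adjusted p = 0.284), without baicalein 2 (0.302), with the replicate block (0.0655), in DESeq2 (0.0504) and with the filter of 50 counts (0.0581).

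Among 8 genes of quality control at the import sites, 5 were higher and 1 lower. For this and the next 2 lists, the background is 37.4% higher and 37.6% lower among all tested genes. The matrix protease gene LONP1 had 344 and 339 CPM in baicalein and 110.0 and 117 CPM in control (log2 fold change 1.59). The extractase gene ATAD1, which removes stalled or misplaced proteins from the outer membrane, and the inner membrane protease gene YME1L1 were higher (0.80 and 0.63). Of 5 genes listed under mitochondrial stress signalling, 4 were higher, among them DDIT3, ATF4 and DELE1 (5.02, 1.22 and 0.30), and 1 was lower. Whether mitochondrial stress lay behind these changes was not tested. Of 11 regulators of mitochondrial biogenesis, 7 were higher and 2 lower. The coactivator genes PPRC1 and PPARGC1B and the transcription factor gene MYC were higher (0.74, 0.98 and 0.68). The 2 lower genes were TFAM (-0.54, adjusted p = 4.74e-10) and TFB1M (-0.39, adjusted p = 0.0026). GABPA, which encodes the DNA-binding subunit of the ETS factor GABP, had 57.2 and 55.2 CPM in baicalein and 52.8 and 46.7 CPM in control (log2 fold change 0.18, adjusted p = 0.00703). The value of GABPA was 0.27 without control 1 and 0.10 without control 2. The call of GABPA was lost without baicalein 1 (adjusted p = 0.089), with library totals alone (0.261) and with GC content and exon length corrected (0.211). NRF1 had 16.5 and 17.1 CPM in baicalein and 15.8 and 14.5 CPM in control and did not pass (adjusted p = 0.0767), though it passed without control 1 (0.0225) and with GC content and exon length corrected (0.04).

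**Figure D5:**
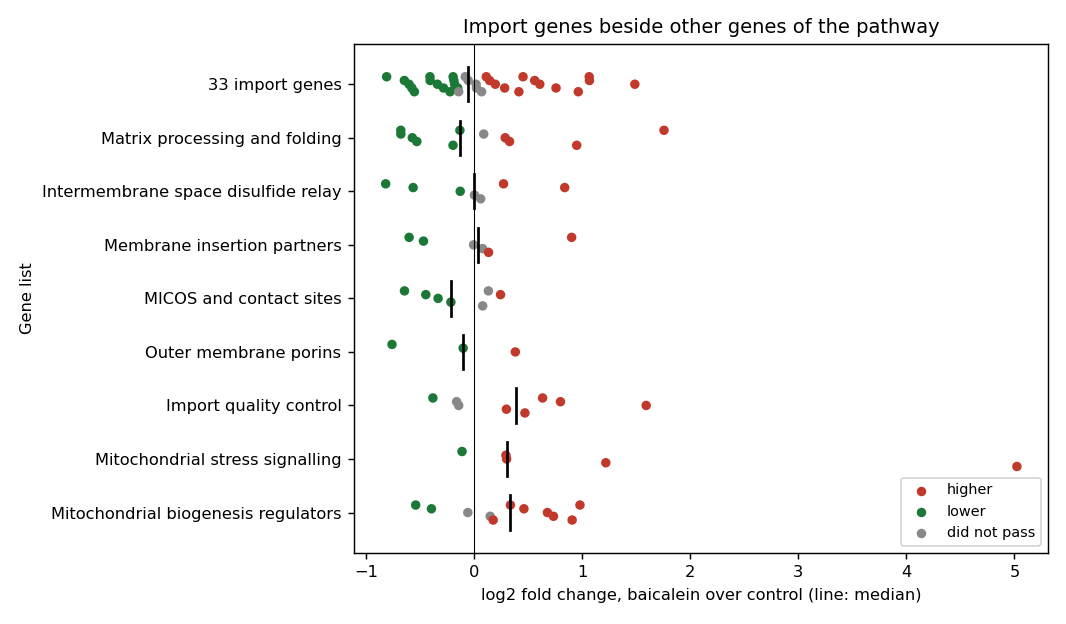
Log2 fold change, baicalein over control, of the 33 import genes and of 8 lists of other genes of the pathway, with 1 point a gene and a black line at the median of each list. The medians ran from -0.21 for the MICOS list to 0.39 for quality control, beside -0.05 for the import genes, and the far point at 5.02 is DDIT3.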

How the data were processed

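Poly(A) RNA was captured on beads before library preparation, per the labels' protocols. The tools listed in the submitters' processing notes, with no role stated, are STAR 2.7.8a, RSEM 1.3.3, cutadapt 2.3, DESeq2 1.34 and FastQC 0.11.8, with the build GRCh38. Counts per gene were deposited as whole numbers by the authors, with no scaling and with row totals of at least 10. No source used here says whether these are rounded RSEM estimates. Columns of other samples numbered 0.

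Members, motifs and lists were chosen with earlier results of these data known. Symbols came from the reference names table, and coordinates and gene types from GENCODE release 29 on GRCh38, which may not be the authors' release. Columns were matched by sample description and groups by title. Counts were tested over all 4 libraries with edgeR 4.0.16 in R 4.3.3 (TMM, filterByExpr at its count minimum of 10 and total minimum of 15, robust quasi-likelihood F test, Benjamini-Hochberg adjustment), which left out 2146 genes. The standard error is the log2 fold change divided by the square root of F. All members are named, with values for each library, and from each list up to 3 genes by the smallest adjusted p plus HSPA9, HSPD1, HSPE1, CHCHD4, AGK, PMPCA and PMPCB. GABPA, NRF1, TFAM and TFB1M, and the neighbours and overlapping genes, were named after their values were seen. The 75-base words came from GENCODE transcripts and show where reads could be shared.

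On the mean, replicates differed by more than sampling noise (mean chi-square per gene 2.43 in baicalein and 9.61 in control). The medians, which lie below the mean under sampling noise alone as well, were 0.70 in baicalein and 1.39 in control. In simulated data for this comparison (17663 genes), 48%, 76%, 84% and 100% of genes changed by 1.2, 1.5, 2 and 4 fold were called, with 14 false calls among 168. Only 50 genes were changed at each size in the simulation, whereas 75% of tested genes passed in the real data. These rates therefore need not hold for the real comparison. Alternatives were other scalings, filters, DESeq2 1.42.0, limma-voom 3.58.1, a test against a 1.5-fold change, a replicate block, a GC content and exon length correction, and leaving out each library, which then leaves 1 in its group, assumed to vary like the other group.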

Additional observations from a re-analysis of the deposited data

How the results depend on the processing

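Of the 27 called import genes, 18 (10 higher and 8 lower) kept direction and call in each of 13 alternatives, which leave out the test against a 1.5-fold change, and 9 did not, as named beside their values. The 9 genes past 1.5-fold were among the 18, by direction and call. The change itself fell short of 1.5-fold in some alternatives for MTX2, TOMM5 and TOMM34. Their smallest log2 fold changes in size were 0.50, -0.56 and -0.56. Against a 1.5-fold change the counts were 5 higher and 1 lower for the import genes and 3090 and 3581 for all genes. The median over the import genes was -0.16 with library totals alone, where the median of all tested genes shifted to -0.10, and 0.00 with GC content and exon length corrected, where that of all genes was 0.03. The cause was not tested. With the replicate block 13 import genes were higher and 14 lower, as without it. Deviations of same-numbered libraries had a correlation of 0.01 over genes. The labels give only the replicate numbers, so whether same-numbered libraries shared a culture or batch is not known. Without each library in turn, the counts were 11 to 14 higher and 11 to 15 lower. DESeq2 called 11 higher and 12 lower.

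Signs that turned were, with upper quartile scaling, MTX1 (-0.0096), TIMM10 (-0.0124) and CHCHD4 (-0.0282). With library totals alone they were TOMM7 (-0.0329), MTX1 (-0.0812), TIMM10 (-0.084), AGK (-0.0241) and CHCHD4 (-0.0997). With GC content and exon length corrected they were TOMM7 (-0.0281), TIMM17B (0.0177), TIMM13 (0.0028), AGK (-0.0684) and CHCHD4 (-0.0263). CHCHD4 was also negative with no filter (-0.0019) and ran between -0.0244 and 0.0520 without each library in turn (-0.0022 without control 2). The ratios of related genes kept their direction with 1 count added and without each library. Leaving out libraries for these ratios was chosen after seeing the data. TIMM8A had the fewest counts (268) and the largest standard error among the members (0.10). With 2 libraries a group, the spread rests on few samples.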
